A study of Mus musculus with 8 samples.

Results

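The nuclear-encoded genes of the mitochondrial respiratory chain and ATP synthase were followed, complex by complex, in activated muscle stem cells (ASCs) of wild-type and mfn2-/- mice. Members were all gene symbols of the expression table that begin with Ndufa, Ndufb, Ndufc, Ndufs or Ndufv and a number (complex I), the Sdh subunits (complex II), symbols that begin with Uqcr (complex III), Cox4 to Cox8 symbols (complex IV) and symbols that begin with Atp5 (complex V). This gave 80 of 18877 genes, with 36 in complex I, 4 in complex II, 8 in complex III, 16 in complex IV and 16 in complex V. The symbols also bring in 3 genes whose proteins are not subunits, namely Cox4nb (an older name of Emc8, a part of a membrane protein insertase of the endoplasmic reticulum), Atp5s and Atp5sl, which leaves 77 subunits. Ndufb1, Ndufb4, Cox6a2, Cox7b2, Cox8c, Atp5g2 and the subunits encoded by mitochondrial DNA were not analysed here.

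The respiratory chain sits in the inner mitochondrial membrane. Complex I takes electrons from NADH and complex II from succinate, both pass them through coenzyme Q to complex III, and cytochrome c carries them to complex IV, where oxygen is reduced. Complexes I, III and IV pump protons, and complex V, the ATP synthase, uses the proton gradient to make ATP. Each complex has catalytic or core subunits that carry out the chemistry and accessory subunits that hold it together, and in striated muscle several complex IV subunits exist as separate isoforms.

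All 8 mice or pools of mice carried a mito-Dendra2 allele, a green fluorescent protein sent to mitochondria, that was switched on by the tamoxifen-dependent Cre recombinase Pax7-Cre(ERT2) in Pax7-expressing muscle stem cells. The mfn2-/- group carried in addition a conditional allele of Mfn2, which encodes the mitochondrial outer-membrane fusion protein mitofusin 2, so that the deletion is limited to cells in which Pax7-Cre(ERT2) was active. Mice of both groups had received tamoxifen at 75 mg/kg once a day for 5 days, then 2 days later 50 uL of 1.2% BaCl2 into the tibialis anterior muscle, and ASCs were sorted 2 days after this injury as CD34-, Dendra2+ and DAPI- cells. There were 4 libraries per group. Age was not given in the sources used here, nor was it stated whether each library came from a separate animal, so p-values measure the spread between these libraries, which may be technical.

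The libraries held 1880464 to 7508215 reads, with the fewest in wild-type replicate 1 and mfn2-/- replicate 4 (2269009). Values below are normalized reads, meaning read counts that the authors scaled library by library, which does not make the library totals equal. Log2 changes are differences of the mean log2(normalized reads + 1), mfn2-/- minus wild-type. Adding 1 lowers the change of weak genes, but a library at 0 can make it larger than the change of the group means. Ndufa2, with a wild-type library at 0, had group means of 58.6 and 126 and a log2 change of 2.29. The targeted gene Mfn2 had values of 243, 245, 202 and 228 in the wild-type group against 104, 118, 172 and 109.95 in the mfn2-/- group, with no overlap (log2 change -0.88, SE 0.30, limma adjusted p = 0.0848). These counts cover the whole gene and not the deleted part alone. Reads of Y-linked genes numbered 807 to 2336 in wild-type 3 and 4 and mfn2-/- 1 and 2 but 0 in the other libraries, so each group held 2 libraries without and 2 with Y-linked reads. Of 12 markers of myogenic stem cells 4 were higher in mfn2-/- (Myod1, Sdc4, Vcam1 and Des) and 0 lower, beside 3.99% and 6.36% of all genes tested. Log2 changes of the 12 were positive for 7 and negative for 5, with a median of 0.087. The summed level was 12724 to 16859 in the wild-type group against 30613 to 43231 in the mfn2-/- group. Most of this rise came from Sdc4 (group means 4271 and 17473) and Des (2156 and 7969). Pax7 had 662 ± 45.9 and 715 ± 96.1 (SD, n = 4) and Myog 359 ± 245 and 117 ± 41.9 (limma adjusted p = 0.110). Genes of some other cell types moved with genotype as well. Of the fibroadipogenic markers 14 of 18 were lower in mfn2-/-, with a summed level of 209697 to 268107 in the wild-type group against 6791 to 11359. Of the tenocyte markers 12 of 12 were lower (46424 to 75419 and 519 to 835), and of the myofiber markers 3 of 19 were higher (2761 to 5497 and 5300 to 6179). Among the tested endothelial (10), macrophage (6) and erythroid (2) markers 0 were called. Of 8 mural markers 1 was higher and 2 lower, and of 4 glial markers 1 was lower. The part of these marker levels in the values of the respiratory chain genes was not tested, and fewer cells of a type and less RNA per cell cannot be told apart in bulk samples.

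Transcripts for the F1 head of ATP synthase, the part that makes ATP, stood far above all the other members. To compare genes with each other, the mean level over the 8 libraries was divided by the length of the main coding mRNA. Where a gene has several main coding mRNAs, their median length was used. Atp5b, the catalytic beta subunit, had 1267 and Atp5a1, the alpha subunit beside it, 963 normalized reads per kilobase. The next members in this order were Cox4i1 with 294, Cox5b with 204, Ndufb10 with 192 and Uqcrc1 with 181. Atp5b and Atp5a1 together took 36.8 to 48.4% of all reads of the 77 subunits in wild-type and 43.0 to 57.1% in mfn2-/- libraries, ranges that overlap. Both subunits are present in equal number in the assembled enzyme, and the ratio of Atp5b to Atp5a1 per kilobase averaged 1.39 ± 0.0872 in the wild-type group and 1.35 ± 0.280 in the other (SD, n = 4), with 1.04 in mfn2-/- replicate 4 as the lowest.

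Within the other parts of the chain, levels per kilobase were graded by role as well as by complex. The median over subunits was 42.5 normalized reads per kilobase for complex I, 73.1 for complex II, 76.1 for complex III, 63.1 for complex IV and 145 for complex V, or 119.8 for the 12 subunits of complex V other than Atp5a1 and Atp5b. In complex I the 7 core subunits, which hold the flavin and the iron-sulfur clusters, had a median of 97.3 and the 29 others one of 35.0. These levels are a description, since a short mRNA can lose reads in library preparation, which was not tested. Across the 80 members length and level per kilobase had a Spearman correlation of 0.27. Among the 22 members with an mRNA under 600 bases 11 reached a mean of 10 normalized reads, and among the 19 over 1500 bases all 19 did. This mean is not divided by length, so more long mRNAs reach it at an equal level per kilobase. The counts therefore cannot show such a loss. The highest and lowest subunits of each complex were Ndufb10 (192) and Ndufb3 (1.80), Sdha (120.3) and Sdhc (19.6), Uqcrc1 (181) and Uqcr11 (15.9), Cox4i1 (294) and Cox4i2 (2.45), and Atp5b (1267) and Atp5k (4.98 normalized reads per kilobase). The place of Sdhc rests on the mRNA length of 3171 bases used for it. Before division by length its mean was 62.2 normalized reads, beside 66.4 for Sdhd (1231 bases).

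**Figure D1:**
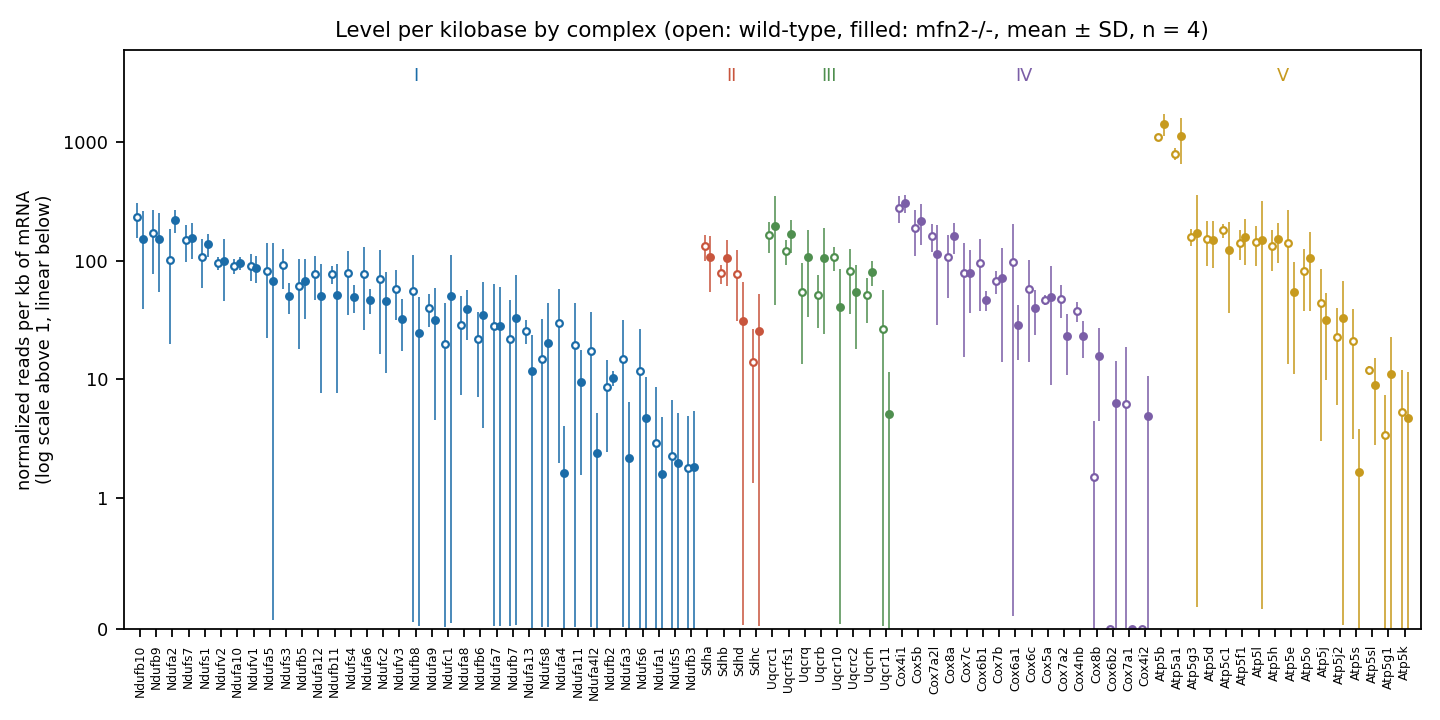
Mean level per kilobase of mRNA of 79 of the 80 members in the 2 groups (points, mean of 4 libraries; bars, SD, cut off at 0), ordered by complex and level on an axis that is logarithmic above 1 and linear below. Averaged over the 8 libraries, Atp5b lies at 1267, Atp5a1 at 963 and all the other members at 294 or below.

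The promoters of these genes carry short sequence words that are known binding motifs of regulators of respiratory genes. RefSeq promoters (GRCm38.p6, 250 bases before to 50 after the gene start) were found for 66 of the 80 members and for 27025 genes in all, and exact words were counted on both strands. The word of nuclear respiratory factor 1, GCATGCGC, was in 9 member promoters (13.6%) and in 3.05% of all promoters, the ETS word CCGGAAG in 16 (24.2%) and 9.93%, and the YY1 word AAGATGGCG in 8 (12.1%) and 1.64%. The TATA box TATAAA was in 6 (9.09%) and 15.7%, the E-box CACGTG in 7 (10.6%) and 8.09%, and the hypoxia response core ACGTG, which lies inside that E-box, in 18 (27.3%) and 21.8%. A match describes the letters only and was not set against the changes between groups. Windows of 30 bases are shown, with the word in capitals and read 5′ to 3′ on the gene's strand. The first 5 hold the nuclear respiratory factor 1 word, 1 per complex, to show that it occurs in all 5 complexes, and the other 5 are all the complex I genes with the YY1 word, where it starts 22 to 35 bases after the gene start.
Ndufa6, chr15:82354356-82354385, minus strand: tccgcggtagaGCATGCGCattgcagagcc
Sdhb, chr4:140961206-140961235, plus strand: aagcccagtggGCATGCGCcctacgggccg
Uqcrc1, chr9:108936668-108936697, plus strand: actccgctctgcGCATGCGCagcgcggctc
Cox6a1, chr5:115349100-115349129, minus strand: aggaacggggcGCATGCGCgctctcgctcc
Atp5l, chr9:44920963-44920992, minus strand: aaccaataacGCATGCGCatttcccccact
Ndufa9, chr6:126849096-126849125, minus strand: attgtgggagAAGATGGCGgccgccgtccg
Ndufc1, chr3:51408914-51408943, minus strand: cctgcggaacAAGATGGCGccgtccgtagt
Ndufs4, chr13:114388045-114388074, minus strand: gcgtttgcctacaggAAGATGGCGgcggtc
Ndufs6, chr13:73328433-73328462, minus strand: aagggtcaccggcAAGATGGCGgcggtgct
Ndufs7, chr10:80249463-80249492, plus strand: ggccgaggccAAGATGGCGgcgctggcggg

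Of the 80 members, 66 had a mean of at least 10 normalized reads over the 8 libraries and were tested, 63 of them subunits (28, 4, 7, 11 and 13 in complexes I to V). The 14 below were Ndufa1, Ndufa3, Ndufa4, Ndufa4l2, Ndufa11, Ndufb3, Ndufs5 and Ndufs6 of complex I, Uqcr11 of complex III, Cox4i2, Cox6b2, Cox7a1 and Cox8b of complex IV and Atp5k of complex V. All 4 subunits of complex II passed.

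Reads of a member could be missing from a library in which its level in the rest of the group was well above the floor. Among the 63 tested subunits there were 29 cases of 0 reads in a library, spread over 24 genes, of which 11 fell in mfn2-/- replicate 4, 9 in wild-type replicate 1 and 6 in wild-type replicate 2. The same libraries held many 0 values over the whole table: at a mean of 10 to 100, 28.6% of 42 members and 40.5% of 6169 genes were at 0 in mfn2-/- replicate 4, 21.4% and 20.3% in wild-type replicate 1, and 14.3% and 9.68% in wild-type replicate 2. In 15 of the 29 cases the mean of the other libraries of the group equalled 20 or more reads at the depth of the library at 0. The extreme case, chosen after its values were seen, was Uqcrc2, a core protein of complex III, with 150.0, 142, 125 and 0 normalized reads in mfn2-/- replicates 1 to 4, where 75.8 reads would match the other 3 libraries. The same library also held high values: mfn2-/- replicate 4 was the highest of all 8 libraries for 17 and the lowest for 18 of the 63 subunits, 55.6% together, against 48.9% of all 11754 genes tested. On the log2 scale, its correlation with the other libraries over the 66 tested members was 0.289 to 0.578 and that of all other pairs of libraries 0.577 to 0.862, where all points share 1 table and 1 set of genes. Over all 11754 genes tested these ranges were 0.552 to 0.750 and 0.633 to 0.919. The median coefficient of variation of the tested subunits was 44.4% within the wild-type group and 64.3% within the mfn2-/- group (41.7% and 50.2% over all genes tested).

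**Figure D2:**
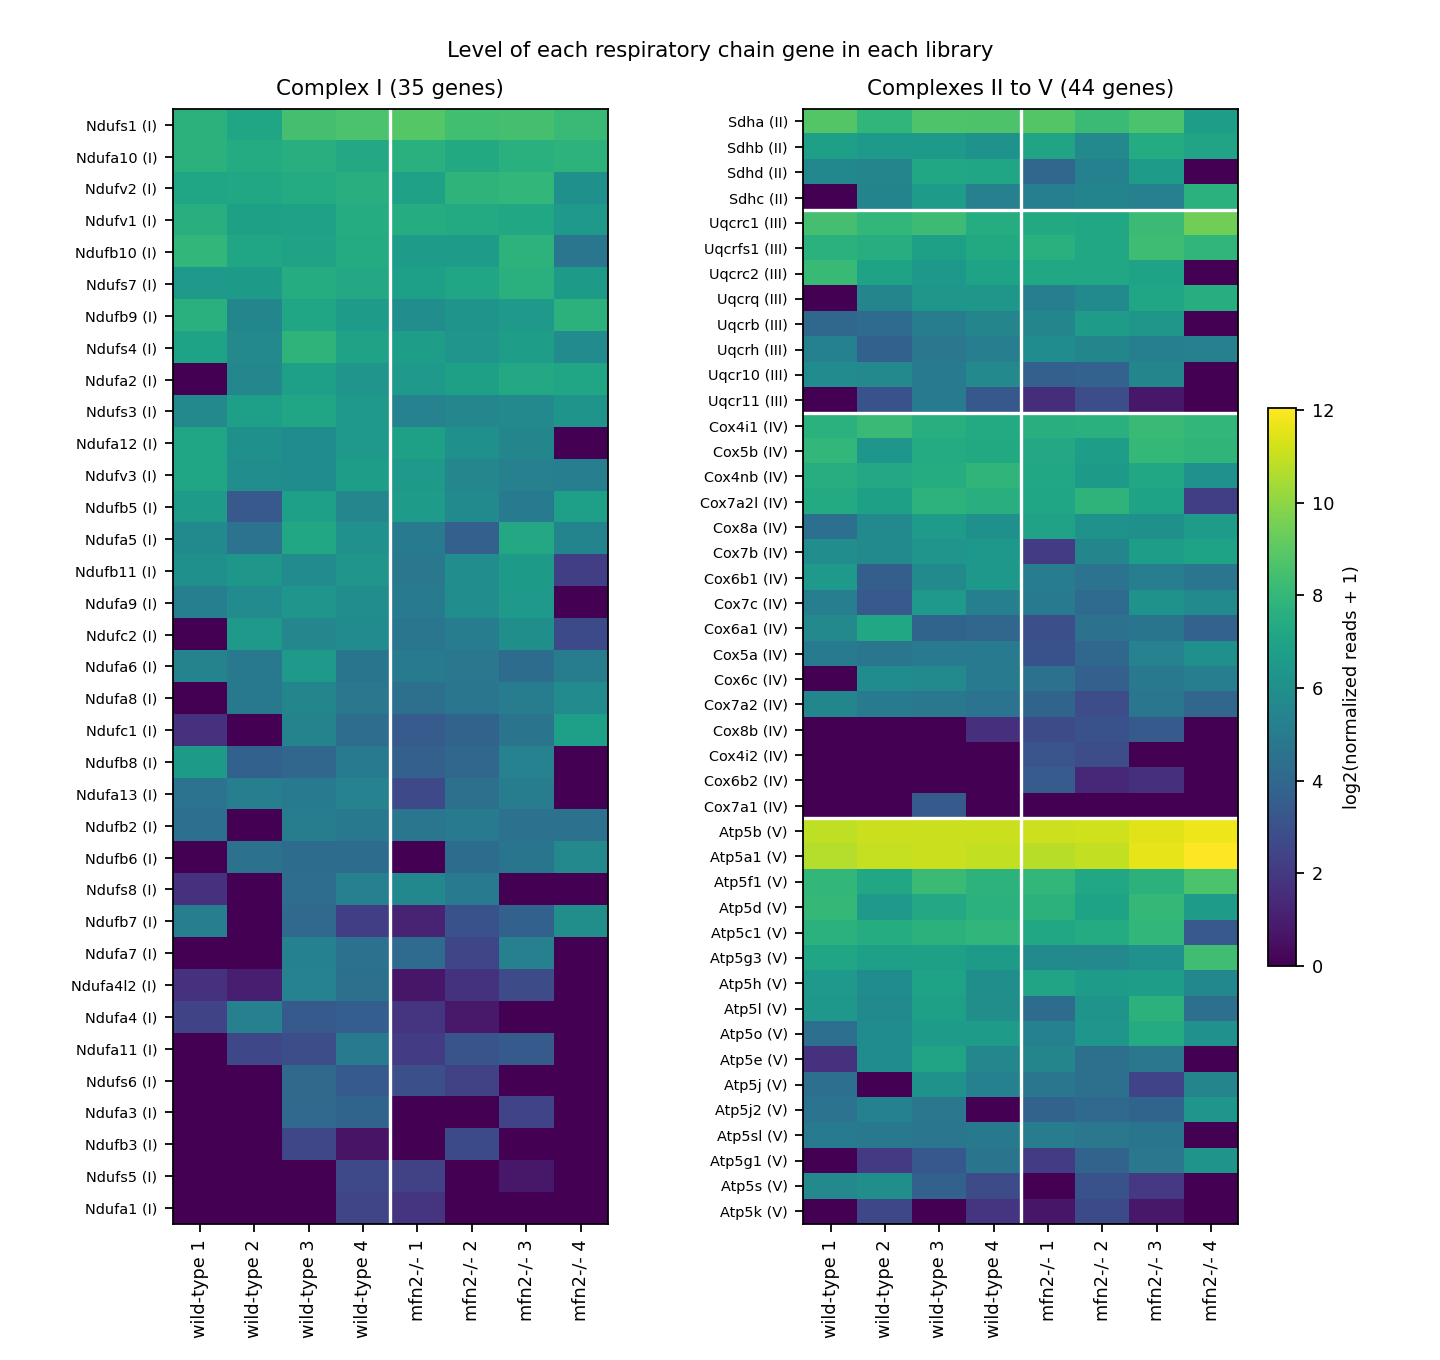
Level of 79 of the 80 members in each of the 8 libraries as log2(normalized reads + 1), with white lines between the groups and between complexes, and the genes of each complex in order of mean level. Atp5b and Atp5a1 are the brightest rows, and dark cells in otherwise bright rows are libraries at 0, such as Uqcrc2 in mfn2-/- replicate 4.

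The first question was whether subunit transcripts of any complex differed between wild-type and mfn2-/- ASCs. None of the 66 tested members passed limma's adjusted p of 0.05, whereas 10.4% of all 11754 genes tested did (3.99% higher and 6.36% lower in mfn2-/-). At an unadjusted p under 0.05 there was 1 member, Atp5s, and 0 of 63 subunits, against 24.8% of all genes. On recovered reads, edgeR called 0 members (2 at an unadjusted p under 0.05, Atp5b and Atp5s, against 22.5% of all genes) and DESeq2 called 0 (1 at an unadjusted p under 0.05), with 9.85% and 14.9% of all genes called. Libraries of the groups did not overlap for 1 of 63 subunits (1.59%), Atp5b, and for 2 of 66 members with Cox4nb, against 19.5% of all genes.

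Precision set what these tests could show. The median width of the 95% interval of the log2 change was 3.67 over the 63 subunits and 5.20 over the 40 with a mean of 10 to 100. For most of the 63 the interval reached beyond a log2 change of -1 or 1, on at least 1 side. For the 23 subunits with a mean of at least 100 it was 1.79. Among these 23, 0 had an unadjusted p under 0.05, against 35.7% of the 5585 genes at that level, 0 were called, against 17.4%, and 1 did not overlap between groups (4.35%), against 26.7%. The interval lay within -1 to 1 for 10 of them (43.5%, against 31.6% of genes at that level), among them Ndufs7, Ndufv1 and Ndufa10 of complex I, Uqcrc1 of complex III, Cox4i1 of complex IV, and Atp5a1, Atp5b, Atp5d and Atp5f1 of complex V, and over all 63 subunits for the same 10 (15.9%, against 15% of all genes). With the shallowest library of each group left out, 0 of 65 subunits that then reached the mean of 10 were called (13.8% of all genes) and 4 had an unadjusted p under 0.05 (6.15%, against 27.9% of all genes). With library weights estimated by limma, which gave mfn2-/- replicate 4 the least weight, 4 members were called lower (Atp5g3, Cox4nb, Ndufs3 and Sdhd) and 25.8% of all genes were called.

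**Figure D3:**
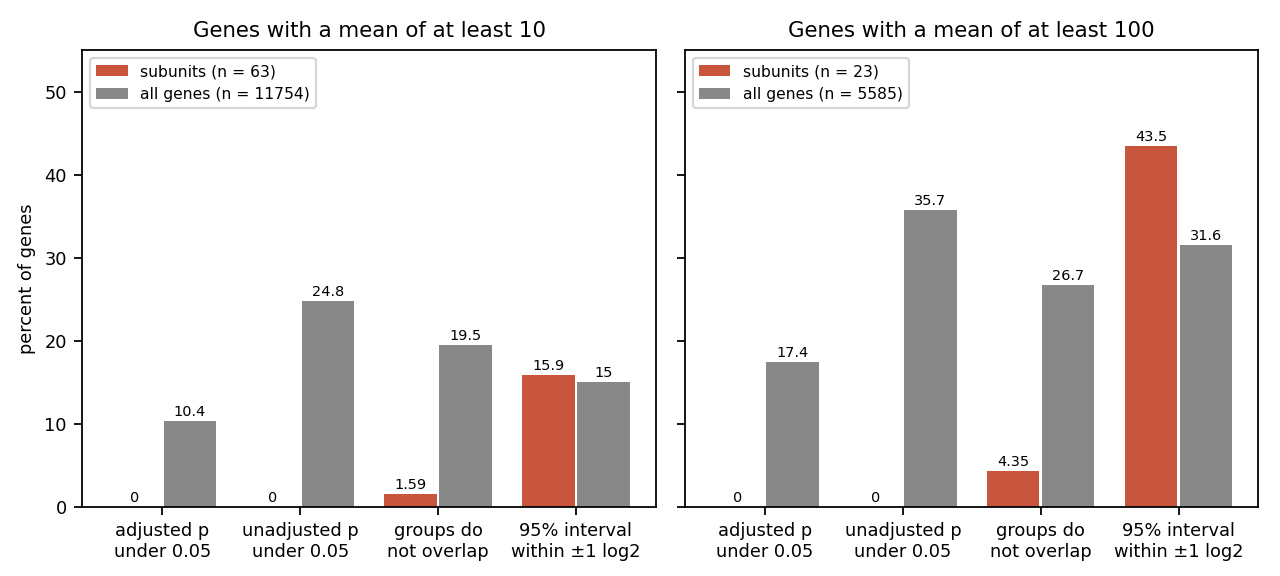
Percent of subunits (63 with a mean of at least 10, 23 with a mean of at least 100) and of all genes at the same level that passed limma's adjusted p, limma's unadjusted p, did not overlap between groups or had a 95% interval within -1 to 1. The bars for subunits are at 0 for both p-values, and at the higher level 43.5% of subunits and 31.6% of all genes have the narrow interval.

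By complex, the median log2 change was -0.10 for complex I (13 subunits positive and 15 negative), -0.060 for complex II (2 and 2), -0.0034 for complex III (3 and 4), -0.32 for complex IV (5 and 6) and 0.17 for complex V (8 and 5), where the median of all genes was -0.16, and each of these signs turned under at least 2 of 22 other ways of processing. Summed over the subunits, complex I had 2532 ± 546 normalized reads in the wild-type group against 2387 ± 362 in the mfn2-/- group, complex II 612 ± 147 and 554 ± 139.5, complex III 759 ± 135 and 879 ± 258, complex IV 933 ± 73.5 and 875 ± 151, and complex V 5179 ± 438 and 6598 ± 1897 (SD, n = 4). Each of these 5 sums differed between groups by less than 1 SD of the more variable group. Without Atp5a1 and Atp5b complex V had 1086 ± 232 and 1074 ± 243.

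**Figure D4:**
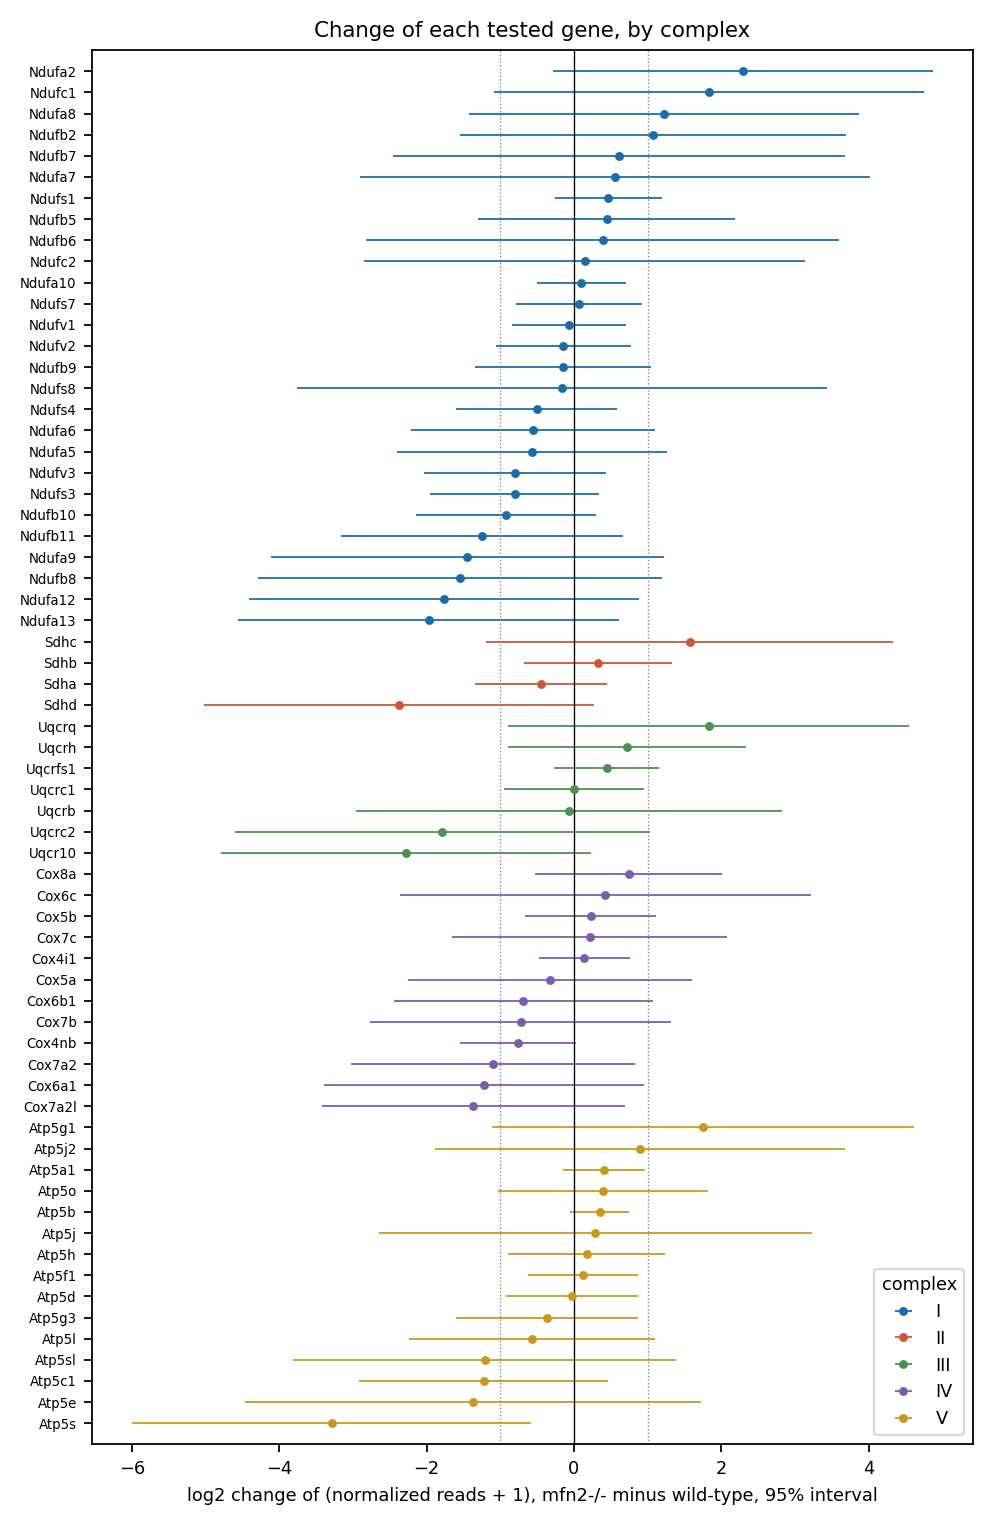
Log2 change (mfn2-/- minus wild-type, point) with its 95% interval (bar) for 65 of the 66 tested members, ordered by complex and change, with dotted lines at -1 and 1. All intervals drawn but that of Atp5s take in 0, and the shortest is that of Atp5b.

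Complex I was examined in its core first. The core subunits, given here after their values were seen, had log2 changes from -0.80 (Ndufs3) to 0.47 (Ndufs1), and the median over the 7 was -0.065. In normalized reads Ndufs3 had 50.0, 109.9, 136 and 88.7 in the wild-type and 39.3, 47.4, 49.4 and 75.1 in the mfn2-/- libraries, where the highest mfn2-/- value lay above 1 wild-type value (adjusted p = 0.385).

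Ndufb10 (chromosome 17, 24722060 to 24724478, minus strand, GENCODE M21, GRCm38), an accessory subunit of the membrane arm and the highest of complex I per kilobase, had 248, 140.0, 122 and 169.9 in the wild-type and 98.7, 95.6, 224 and 25.7 in the mfn2-/- libraries. Its lowest value was in mfn2-/- replicate 4, and mfn2-/- replicate 3 lay above 3 of the wild-type libraries. This gave a log2 change of -0.92 (SE 0.57, 95% interval -2.14 to 0.30, limma adjusted p = 0.347). Among the accessory subunits the log2 change reached from -1.97 (SE 1.20) for Ndufa13, also known as Grim19, to 2.29 (SE 1.20) for Ndufa2. Each of these 2 rests on a library at 0. Ndufa13 had 22.7, 34.2, 31.0 and 40.1 in the wild-type and 5.33, 20.5, 33.2 and 0 in the mfn2-/- libraries, and Ndufa2 had 0, 46.7, 112 and 75.9 in the wild-type and 91.3, 115, 155 and 141 in the mfn2-/- libraries. Without wild-type replicate 1, the library at 0 for Ndufa2, its log2 change was 0.74.

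Complex II has only 4 subunits, all nuclear-encoded. Sdha (chromosome 13, 74322254 to 74350280, minus strand), the flavoprotein that oxidizes succinate, had 448, 242, 431 and 415 normalized reads in wild-type replicates 1 to 4 and 459, 297, 396 and 103 in mfn2-/- replicates 1 to 4. Its groups overlapped, with 1 low library in each. For Sdha the log2 change came to -0.45 (SE 0.41, 95% interval -1.34 to 0.45, limma adjusted p = 0.544). Sdhb, the iron-sulfur subunit, had 111, 87.1, 86.6 and 71.6 in the wild-type and 131, 50.6, 172 and 132 in the mfn2-/- libraries (log2 change 0.33, SE 0.47), which overlapped as well. The membrane anchors were the least precise: Sdhc had 0, 42.5, 96.4 and 36.9 in the wild-type and 36.0, 41.9, 36.8 and 207 in the mfn2-/- libraries, and Sdhd had 47.8, 43.6, 150.3 and 138 in the wild-type and 14.7, 38.7, 98.7 and 0 in the mfn2-/- libraries. In these 2 genes mfn2-/- replicate 4 was at opposite ends, the highest of 8 for Sdhc and the lowest for Sdhd, and the log2 changes were 1.57 (SE 1.28) and -2.38 (SE 1.23, adjusted p = 0.254).

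In complex III, Uqcrc1 (chromosome 9, 108936633 to 108949623, plus strand), a core protein of the matrix side, had 364, 251, 305 and 175 normalized reads in wild-type replicates 1 to 4 and 159, 149, 295 and 691 in mfn2-/- replicates 1 to 4. Both the lowest values and the highest one were in mfn2-/- libraries. The log2 change was -0.0034 (SE 0.44, 95% interval -0.95 to 0.95, limma adjusted p = 0.997). Uqcrfs1, the Rieske iron-sulfur protein that passes electrons on to cytochrome c1, had 207, 183, 113 and 159 in the wild-type and 199, 151, 316 and 246 in the mfn2-/- libraries (log2 change 0.45, SE 0.33, adjusted p = 0.438), with overlap between the groups. The small accessory subunits gave the ends of the range. Uqcrq had 0, 43.6, 82.5 and 82.8 in the wild-type and 34.7, 52.9, 141 and 183 in the mfn2-/- libraries (log2 change 1.83, SE 1.26), and Uqcr10 had 54.6, 49.8, 31.0 and 49.7 in the wild-type and 12.0, 12.6, 45.7 and 0 in the mfn2-/- libraries (log2 change -2.28, SE 1.17, adjusted p = 0.250). For Uqcr10 all mfn2-/- libraries but replicate 3 lay below the wild-type libraries.

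In complex IV, Cox4i1 (chromosome 8, 120668222 to 120674207, plus strand), the common isoform of the subunit 4 that regulates the enzyme, had 209, 290.4, 185 and 165 normalized reads in wild-type replicates 1 to 4 and 194, 199, 279 and 253 in mfn2-/- replicates 1 to 4. The range of the mfn2-/- libraries lay inside that of the wild-type libraries. This gave a log2 change of 0.14 (SE 0.29, 95% interval -0.48 to 0.75, limma adjusted p = 0.810). Cox5b, which binds zinc on the matrix side, had 248, 79.9, 167 and 159.7 in the wild-type and 154, 106, 258 and 236 in the mfn2-/- libraries (log2 change 0.23, SE 0.41). Cox8a had 20.5, 51.9, 97.2 and 65.2 in the wild-type and 122, 71.9, 64.8 and 97.1 in the mfn2-/- libraries and the highest log2 change of the complex, 0.74 (SE 0.59, adjusted p = 0.473), with overlap. Cox7a2l, also known as Scaf1, a factor of complex III and IV supercomplexes, had 166, 114, 224 and 189 in the wild-type and 136, 229.9, 125 and 3.67 in the mfn2-/- libraries. Its log2 change of -1.36 (SE 0.95), the lowest of the complex, rests on mfn2-/- replicate 4, without which it was -0.092. Cox7b had 59.1, 51.9, 75.9 and 84.4 in the wild-type and 3.33, 45.8, 106 and 128 in the mfn2-/- libraries, so that mfn2-/- libraries held its lowest and its 2 highest values (log2 change -0.72, SE 0.95).

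Cox4nb was, with Atp5b, 1 of the 2 tested members whose groups did not overlap. It had 179.7, 153, 176 and 235 in the wild-type and 149, 93.2, 145 and 67.8 in the mfn2-/- libraries (log2 change -0.76, SE 0.37, adjusted p = 0.219). This gene overlaps the start of Cox4i1 on the other strand, and the strand setting of the read counting was not given in the sources used here, so reads of the shared stretch cannot be assigned with certainty.

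Isoforms known from striated muscle or testis were near the floor of 3 reads. Summed over the 4 libraries of a group, Cox4i2, the oxygen-regulated form, had 0 reads in wild-type and 20 in mfn2-/- beside 908 and 1059 for Cox4i1, and Cox6b2, the testis form, had 0 and 20 beside 272 and 138 for Cox6b1. Of the striated-muscle forms, Cox7a1 had 12 and 0 reads beside 125 and 72 for Cox7a2, and Cox8b had 4 and 31 beside 300 and 415 for Cox8a. Under a fit with no filter on low values these 4 minor forms had limma adjusted p-values of 0.326 for Cox4i2, 0.245 for Cox6b2, 0.546 for Cox7a1 and 0.331 for Cox8b. The 20 Cox4i2 reads came from mfn2-/- replicates 1 and 2 alone, and the 12 Cox7a1 reads from wild-type replicate 3 alone. The common forms Cox6a1, Cox6b1 and Cox7a2 had log2 changes of -1.22, -0.69 and -1.10 (SE 1.01, 0.81 and 0.90), none past the threshold.

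Ndufa4, first counted to complex I and now assigned to complex IV, was under the filter, and its normalized reads did not overlap between groups. It had 4.55, 37.3, 9.80 and 11.2 in the wild-type and 2.67, 0.790, 0 and 0 in the mfn2-/- libraries, that is 2, 36, 12 and 21 reads against 4, 1, 0 and 0. In reads the groups overlap, since wild-type replicate 1 held 2 and mfn2-/- replicate 1 held 4, so the separation rests on the scaling of counts near the floor of 3. The 2-sided exact permutation test gave p = 0.0286, the smallest that 4 against 4 libraries allow, and the limma adjusted p under the fit with no filter was 0.203 (log2 change -3.02, SE 1.22). Over all 80 members the exact test reached this smallest p, which means no overlap, for 3 (3.75%), Atp5b, Cox4nb and Ndufa4, against 13.2% of all 18877 genes without overlap. Its paralog Ndufa4l2, which is induced by hypoxia, had 2.27, 1.04, 40.0 and 20.8 in the wild-type and 0.667, 2.37, 5.90 and 0 in the mfn2-/- libraries (90 and 12 reads per group, exact permutation p = 0.229, adjusted p with no filter 0.535), where the 2 wild-type libraries with Y-linked reads held 88 of the 90 reads.

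Atp5b (chromosome 10, 128083273 to 128090391, plus strand) was the only 1 of the 63 tested subunits whose groups did not overlap, though its limma p was not the lowest among them. It had 1926, 2199.5, 2185 and 2169 normalized reads in wild-type replicates 1 to 4 and 2243, 2312, 2964 and 3429 in mfn2-/- replicates 1 to 4. The lowest mfn2-/- value lay above the highest wild-type value by 43.4 normalized reads, and mfn2-/- replicates 3 and 4 were well above the other 2. For Atp5b the log2 change came to 0.35 (SE 0.18, 95% interval -0.049 to 0.74, limma adjusted p = 0.268), and the 2-sided exact permutation test gave p = 0.0286.

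Atp5a1 had 1681, 2048, 2209.9 and 1953 normalized reads in wild-type replicates 1 to 4 and 1737, 2001, 3161 and 4248 in mfn2-/- replicates 1 to 4. Here mfn2-/- replicates 1 and 2 fell within the wild-type range and replicates 3 and 4 above it. The log2 change was 0.41 (SE 0.26, 95% interval -0.14 to 0.97, limma adjusted p = 0.356). With the shallowest library of each group left out, the log2 change was 0.19 for Atp5b and 0.10 for Atp5a1, and over all 22 alternatives it was 0.15 to 0.44 for Atp5b and 0.050 to 0.61 for Atp5a1, with lowest adjusted p-values of 0.198 and 0.166.

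The other parts of complex V did not separate. The c subunits, which form the rotating ring in the membrane, are made from several genes. Atp5g3 had 139, 109, 116 and 94.0 in the wild-type and 53.3, 49.8, 68.5 and 323 in the mfn2-/- libraries, so that 3 mfn2-/- libraries lay below all wild-type libraries and replicate 4 above them (log2 change -0.36, SE 0.57, and -0.99 without mfn2-/- replicate 4, where it also was not called). Atp5g1 had 0, 3.11, 8.98 and 24.0 in the wild-type and 3.33, 13.4, 27.3 and 73.3 in the mfn2-/- libraries (log2 change 1.75, SE 1.33), the highest log2 change of complex V. Summed over the libraries of a group, Atp5g3 had 484 reads in wild-type and 412 in mfn2-/- beside 59 and 99 for Atp5g1. With the median length of 2675.5 bases used for Atp5g1, Atp5g3 took 97.9% of the level per kilobase of the 2 genes in wild-type and 94.0% in mfn2-/-. A shorter Atp5g1 mRNA would lower these shares. Atp5s, whose product is no subunit of the enzyme, had 50.0, 62.2, 12.2 and 5.88 in the wild-type and 0, 7.11, 2.95 and 0 in the mfn2-/- libraries, with 1 mfn2-/- library above the lowest wild-type library (log2 change -3.29, SE 1.25, adjusted p = 0.120).

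Since the groups held both kinds of library, the change was also taken within the libraries without Y-linked reads (wild-type 1 and 2, mfn2-/- 3 and 4) and within those with them (wild-type 3 and 4, mfn2-/- 1 and 2). The difference of these 2 changes passed limma's adjusted p of 0.05 for 0 of 66 members (1.47% of all genes tested), and at an unadjusted p under 0.05 for 7 (12% of all genes). The lowest adjusted p was 0.0658, for Atp5a1, whose log2 change was 0.98 in the libraries without and -0.16 in those with Y-linked reads, and for Atp5b the values were 0.63 and 0.065 (adjusted p of the difference 0.274). Ndufc1, an accessory subunit of the membrane arm with low counts, had the widest gap, 4.85 and -1.19 (adjusted p 0.268). The shallow wild-type replicate 1 and mfn2-/- replicate 4 were both without Y-linked reads. In each group both libraries without these reads were shallower than both with them. The gap was small between mfn2-/- replicate 3 (without, 5050798 reads) and mfn2-/- replicate 2 (with, 5115404). The parts of depth and of library kind in these differences were not tested and cannot be fully told apart.

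Medians over the subunits in the libraries without and with Y-linked reads were 0.28 and -0.60 for complex I, -0.048 and -0.40 for complex II, 0.52 and 0.37 for complex III, 0.80 and -1.25 for complex IV, and 0.28 and -0.54 for complex V, beside -0.16 and -0.16 over all genes. The difference with minus without was negative for 41 of 63 subunits and for 5410 of 11754 genes. For the 7 core subunits of complex I the medians were -0.16 and -0.076. Within the libraries without Y-linked reads 9.83% and within those with them 8.56% of all genes were called. Of the 66 members, Atp5a1 and Atp5b were called as higher in mfn2-/- within the libraries without Y-linked reads (limma adjusted p = 0.00907 and 0.0211), where both mfn2-/- libraries lay above both wild-type libraries, and 0 were called within those with them (adjusted p = 0.802 and 0.924 for the same 2 genes).

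**Figure D5:**
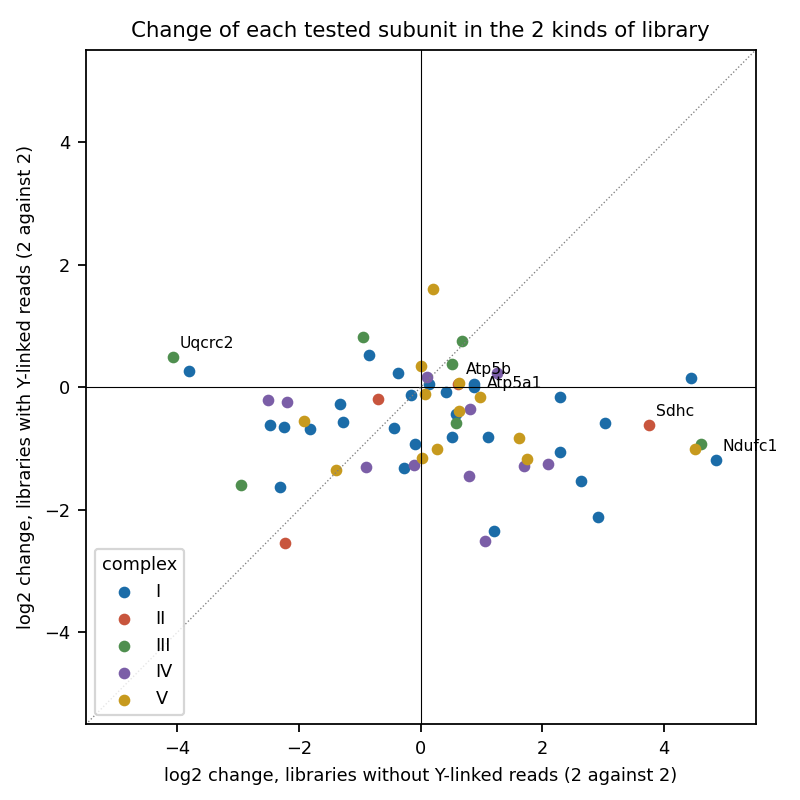
Log2 change of the 63 tested subunits within the libraries without Y-linked reads (horizontal axis) and with them (vertical axis), 2 against 2 libraries each, coloured by complex, with the dotted line of equal change. Atp5a1 lies at 0.98 and -0.16, and the spread along the horizontal axis, from -4.07 (Uqcrc2) to 4.85 (Ndufc1), is wider than along the vertical axis.

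Other genes that serve the same pathway were taken from lists. Of 52 assembly factors and related genes present, 36 were tested, and 0 were higher and 0 lower in mfn2-/-. Over all genes tested 3.99% were higher and 6.36% lower. The median log2 change was -0.18 for the 36, beside -0.16 over all genes tested. The list takes in Atpif1 and Lrpprc, which are not assembly factors in the strict sense. Of 7 carriers and subunits that the symbol rule does not reach 0 were called (10.4% of all genes). Cycs, cytochrome c itself, had 107, 152, 198 and 149 normalized reads in the wild-type group against 215, 222, 357 and 275 in the mfn2-/- group, with no overlap (log2 change 0.82, SE 0.31, adjusted p = 0.115), and Cyc1, the cytochrome c1 subunit of complex III, had a log2 change of 0.19. Of 9 tested genes of coenzyme Q synthesis and handling 1 was higher and 0 lower, where 3.99% of all genes were higher. This was Coq10b, a protein that binds coenzyme Q, with 202, 349, 200.1 and 144 normalized reads in the wild-type group against 557, 773, 483 and 546, all mfn2-/- libraries above all wild-type ones (log2 change 1.45, SE 0.29, adjusted p = 0.00644).

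Near-identical copies and overlapping genes limit some of the values. With GENCODE M21 transcripts, 12 of 80 members had at least 1 copy elsewhere of 95% identity or more over at least 50% of the mRNA, 24 copies in all, of which 23 were pseudogenes. Atp5l had 9, and Uqcrb and Atp5h 3 each. The authors' rule for reads that map to several places was not given in the sources used here, so the levels of all 12 are uncertain. They include Ndufs3 and Atp5g1, described above, with 1 pseudogene copy each. The median level was 50.5 normalized reads for the 12 and 47.9 for the 68 members without such a copy. On the opposite strand 29 members overlap another gene and on the same strand 12.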

How the data were processed

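Total RNA of sorted ASCs (RNeasy Micro kit) was made into SMARTer stranded pico input libraries, 4 per genotype, with group and replicate number taken from the sample titles. The authors deposited 1 table of normalized read counts per gene symbol, a signal on a linear scale, with 8 columns that all belong to these libraries. Submitters' processing notes name Trim Galore, HISAT2, featureCounts, DESeq2 and the build mm9. Versions, the annotation, the strand setting and the rule for multimapping reads were not given in the sources used here.

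Every value (100%, tolerance 0.001) was a whole multiple of the smallest step of its column. That step (0.534 to 2.27) was taken as 1 read, which gave the depths and whole reads for count models, and 3 reads were taken as the floor. Intervals over libraries do not cover amplification, since reads without molecular identifiers are not separate molecules.

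For the main test, log2(value + 1) of the 11754 genes with a mean of at least 10 was fitted by genotype alone in limma 3.58.1 (R 4.3.3, intensity trend), with 2-sided Benjamini-Hochberg adjustment over all of them at 0.05. A second fit added the kind of library (with or without Y-linked reads) and its interaction with genotype. Single values were compared with 2-sided exact permutation tests over 70 arrangements. Alternatives were pseudocounts of 0.1 and 10, no filter, a mean of at least 50, upper-quartile and quantile normalization, equal totals, no trend, library kind as a term, the replicate number as a block, library weights, each library left out, and 2 count models of the whole reads, edgeR 4.0.16 with TMM and the quasi-likelihood test and DESeq2 1.42.0. A fit without the shallowest library of each group was added once the data were known. All fits were tested on simulated data. Tables and figures were made in Python 3.11.15.

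All 80 members matched GENCODE M21 (GRCm38), which gave mRNA lengths and coordinates, since the table has none, and near-identical transcripts were found with blastn 2.17.0. Promoters came from RefSeq (GRCm38.p6). Members, marker lists and pathway lists were chosen with earlier results of these data known. Genes were named per complex by a rule: the 2 highest per kilobase, the largest and smallest log2 change, the largest difference between kinds of library, isoform pairs, and any gene past the threshold. Others named were chosen after their values were seen. The values of 1 complex I member that the rule names are not reported here, though it stays in the fits and counts.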

Additional observations from a re-analysis of the deposited data

Results flagged for a closer look

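Of 74 groups of 4 values taken for Dixon's test, 8 held 1 value past its 95% critical value. The 74 include the wild-type values of Cox4i2 and Cox6b2 and the mfn2-/- values of Cox7a1. These were all 0 and could not be tested. For Cox7a1 and Cox8b in the wild-type group the other 3 values were all 0, so that any value above 0 would have passed. This leaves 6 of 72 groups, the untested ones among the 72. Chance flags about 1 in 20 groups that are not chosen by their values, here about 4 at most. Some of these genes were named for large changes in the same data, such as Sdhc and Ndufc1, and the sums reuse values of single genes. The rate of 1 in 20 therefore does not hold for these groups, and no conclusion is drawn from the count. Of the 6, 3 were high in mfn2-/- replicate 4: Atp5g3 with 323 normalized reads (49.8 to 68.5 in the other 3 libraries), Sdhc with 207 (36.0 to 41.9) and Ndufc1 with 109.95 (10 to 23.6). In wild-type libraries, Atp5b was low in replicate 1 with 1926 (2169 to 2200 in the others) and Sdha low in replicate 2 with 242 (415 to 448). The summed level of complex III was high in wild-type replicate 1 with 960 (678 to 707). Cox7a1 with 9.80 in wild-type replicate 3 and Cox8b with 2.14 in wild-type replicate 4 stood against 0 in the other 3 libraries. The median change of complex IV was -1.25 with and 0.80 without Y-linked reads, and by the median over its subunits both mfn2-/- libraries lay below both wild-type libraries with these reads and above both without them. This difference of medians was not tested.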

How the results depend on the processing

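Over 22 alternatives, 0 members were called as higher in all of them, and 0 as lower in all but library weights, which down-weighted mfn2-/- replicate 4 most (0.167) and called 4 lower, Atp5g3, Cox4nb, Ndufs3 and Sdhd (adjusted p 0.0476, 0.0293, 0.0336 and 0.0465), beside 25.8% of all genes. Mfn2 also passed with these weights (-0.87, adjusted p 0.0099). The median of complex III moved to 0.42 with a pseudocount of 10, 0.22 with a mean of at least 50, 0.56 with quantile normalization, 0.54 with edgeR, 0.47 with DESeq2 and 0.33 without the shallowest library of each group, and leaving out single libraries gave -0.058 to 0.39. That of complex IV moved to 0.14 with no filter and with a mean of at least 50, 0.22 with quantile normalization and -0.78 with library weights, with -0.55 to 0.21 when single libraries were left out, and that of complex V to -0.18 with library weights. The median change of all genes was -0.16, -0.25, -0.11 and 0.13 under the authors', upper-quartile, equal-total and quantile scaling. The number of members whose change differed between kinds of library, 0 in the fit as reported, was 1 with a pseudocount of 10 (1.86% of all genes) and with equal totals (0.995%), Atp5a1 in both, 2 with quantile normalization (1.61%), Atp5a1 and Atp5b, 4 with DESeq2 (7.09%), and 0 to 8 when single libraries were left out, with 2 without wild-type replicate 2 (0.976%) and 8 without mfn2-/- replicate 3 (11.4%). The cause of these moves was not tested. Depth limits the weak members most in wild-type replicate 1 and mfn2-/- replicate 4.

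Same-numbered libraries did not deviate together over all genes tested (correlation -0.11 to 0.038 over 4 pairs, beside -0.058 to 0.12 over 12 pairs with different numbers). Each same-numbered pair joins a library with Y-linked reads to a library without them. These values therefore cannot show whether the numbers pair the samples. With the replicate number as a block 0 members were called higher and 0 lower, and the medians of complexes I to V were -0.10, -0.060, -0.0034, -0.32 and 0.17. Mfn2 had -0.88 (adjusted p 0.155).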
